A study of Homo sapiens with 6 samples.

Results

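The genes described here encode the proteasome, the protease that destroys ubiquitin-tagged proteins, and the factors that help to build it. They were chosen by name as the protein-coding genes whose symbol begins with PSMA, PSMB, PSMC, PSMD, PSME, PSMF or PSMG followed by a number, together with POMP and ADRM1 and without PSMB8 and PSMB9. The rule used no measured value and found 48 of the 21494 genes in the table. Of these, 46 are parts or builders of the proteasome. The other 2, PSMC3IP, a recombination factor, and PSME3IP1, named for its interaction with PSME3, are neither and are given separately.

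The 20S core is a barrel of stacked rings, with the alpha subunits (PSMA genes) gating the ends and the beta subunits (PSMB genes) forming the chamber in which PSMB5, PSMB6 and PSMB7 cut proteins. The 19S particle caps the barrel. Its base holds a ring of ATPases (PSMC genes) that unfold substrates and receptors that bind ubiquitin, and its lid removes the ubiquitin chain. DCAF1 is the substrate receptor of a cullin 4 ubiquitin ligase, so it acts one step before the proteasome, and many proteasome genes are known targets of the transcription factor NFE2L1 (NRF1), which binds antioxidant response elements (ARE) when proteasome activity runs short.

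RNA-seq had been made from 6 samples of a human cell line, 3 with a control shRNA (shControl) and 3 with an shRNA against the coding region of DCAF1 (shDCAF1). Both shRNAs were delivered by lentivirus and the cells kept under puromycin, and the labels give the genotype as WT in shControl and as DCAF1 Knockdown in shDCAF1. The labels name the cells as G361, a melanoma line, but give LD611 as their source, and they name a different library kit from the study's methods. The samples carry replicate numbers, but no source used here says that they came from separate cultures, so the p-values measure only the spread between these samples, which may be technical.

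Each library held between 18195949 and 26883948 estimated counts, and the members drew between 72 and 12301 counts per library. DCAF1 itself had 797, 971 and 838 normalized counts in shControl and 760.3, 507 and 481 in shDCAF1, counts being scaled by upper quartile factors here and throughout. The shDCAF1 libraries lay below the shControl libraries, with library 1 of shDCAF1 close to them, and the log2 fold change of shDCAF1 over shControl was -0.58 (SE 0.17, adjusted p = 0.0125, edgeR's quasi-likelihood test with Benjamini-Hochberg adjustment), or -0.37 (adjusted p = 0.0851) when scaled by library size alone. Of 8 melanocyte markers, 4 were in the table, with 184 to 210 counts summed in a shControl library and 235 to 367 in a shDCAF1 library, while TYR, DCT, SOX10 and S100B were not in the table used here. All 7 epithelial markers were present at summed counts of 141751 to 190879 and 114186 to 215539. At an adjusted p under 0.05, 4 of them were higher and 3 lower, where 40.4% and 36.0% of all genes tested were. KRT5 went from 48190, 63704 and 73688 counts to 4524, 2582 and 3560. Of 5 urothelial markers 4 were in the table, 2 higher and 2 lower. GATA3 went from 7, 1 and 0 counts to 1580, 1334 and 1873, and UPK1B from 500, 641 and 709 to 0 in each library. The labelled cell type was thus not borne out by its markers in either group. Besides the shRNA, the groups differed in 96 genes that were near silent in shDCAF1 (3 counts or fewer in each library) and averaged 1000 normalized counts or more in shControl, and in 32 genes with the opposite pattern. Knockdown and any other difference between the cells of the 2 groups cannot be told apart in this design.

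To show the proteasome genes as regulatory sequence, their promoters were searched for TGACNNNGC, the letters of an ARE, on both strands. RefSeq windows of 250 bases before to 50 bases after the gene start (GRCh38.p14) were found for 42 of the 48 members, and PSMD4, PSMA7, PSMB1, PSMG3, PSMB6 and PSMB7 had none. The 4 stretches of 60 bases below, read 5′ to 3′ on the strand of the gene, each hold 1 match in capitals and were chosen because they stand before a core subunit and a lid subunit whose mRNA was lower in shDCAF1 (PSMB3 and PSMD3) and before 2 assembly chaperones whose mRNA was higher (PSMD5 and PSMG1).
PSMB3, chr17:38752611-38752670, plus strand: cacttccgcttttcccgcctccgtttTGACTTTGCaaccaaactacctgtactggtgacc
PSMD3, chr17:39980744-39980803, plus strand: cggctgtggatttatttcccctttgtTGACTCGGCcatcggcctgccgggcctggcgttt
PSMD5, chr9:120843023-120843082, minus strand: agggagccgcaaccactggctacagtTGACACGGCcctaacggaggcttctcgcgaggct
PSMG1, chr21:39183601-39183660, minus strand: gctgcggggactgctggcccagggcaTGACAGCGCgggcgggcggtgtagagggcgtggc
The capitals begin at -104, -37, -134 and -183 bases from the gene start in the order shown. A match is a description of the letters and not evidence of a bound site.

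The letters TGACNNNGC were present in a window of 15 of the 42 members (35.7%), against 16.1% of all 27305 genes with a window and 19.2% of the 11785 such genes that were tested. CCAAT, the letters bound by NF-Y, was present on either strand in 21 of the 42 (50%), against 39.7% and 42.8%, and no ARE-like match overlapped a CCAAT. Members with an ARE-like match had a median log2 fold change of 0.039, with 5 higher, 5 lower and 5 not passing an adjusted p under 0.05, where 40.4% of all genes tested were higher and 36.0% lower. Members without one had a median of 0.063, with 10 higher, 9 lower and 8 not passing. Both sets thus held members of either direction. Among the 21 members with CCAAT, 10 were higher, 4 lower and 7 did not pass (median 0.17), and among the 21 without it 5 were higher, 10 lower and 6 did not pass (median -0.25). These counts stand beside the same 40.4% and 36.0%, and the difference was described and not tested.

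The comparison of shDCAF1 with shControl asked which genes moved when DCAF1 was depleted. As a group the proteasome genes did not shift in 1 direction. All 48 passed the filter on low counts. At an adjusted p under 0.05 and over 2-fold, the rule the study used, 2 members were higher in shDCAF1 (PSMG3 and PSMC3IP) and 3 were lower (PSMD11, PSMA1 and POMP), or 10.4% of the members against 46.4% of the 16756 genes tested. The 46.4% comes from the fit made here. With its own algorithm the study reported far fewer genes at these thresholds, most of them higher after knockdown. The reason for this difference was not tested. At an adjusted p under 0.05 and any fold, 16 were higher, 17 lower and 15 did not pass, so that 68.8% of the members passed against 76.4% of all genes tested. The 3 values of each group did not overlap for 18 members that were higher and 18 that were lower (75.0%, against 79.5% of all genes tested). The members thus passed at any fold nearly as often as all genes tested, but with smaller differences: their median absolute log2 fold change was 0.48 against 0.92 over all genes tested, and the SD of their log2 fold changes was 0.71 against 3.13. All genes tested include noncoding genes and genes at low counts, while the members are all protein-coding. No set of genes matched for abundance was compared, so the smaller differences may hold for abundant genes at large.

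The median log2 fold change of the 48 members was -0.00046, beside 0.083 over all genes tested. This balance moved with the scaling. With library size alone 23 members were higher and 14 lower, and 5 and 1 passed over 2-fold. The number lower by over 2-fold rested on members just short of 2-fold and was 7 with TMM factors, 8 with DESeq2 and 5 without library 1 of shControl, where PSMB3 and PSMD13 joined the 3.

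**Figure D1:**
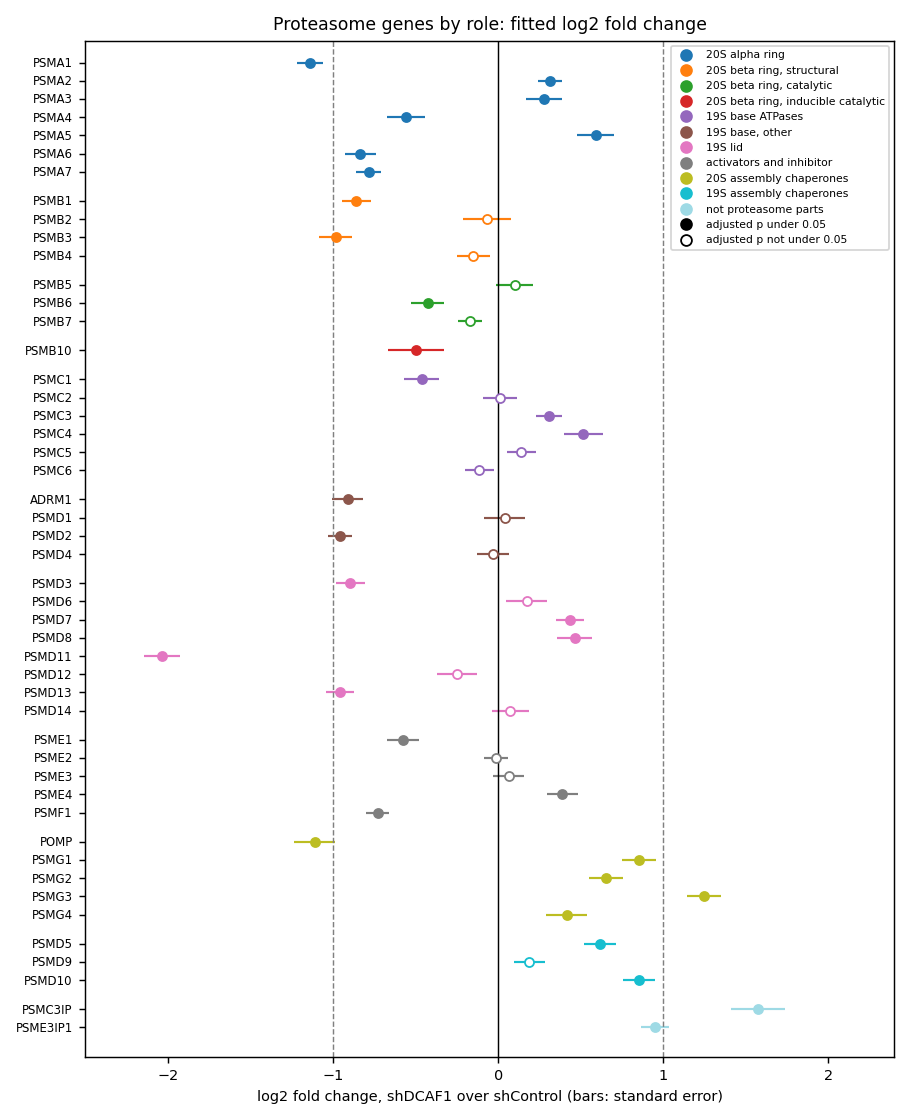
Fitted log2 fold change of shDCAF1 over shControl for the 48 members (x axis), ordered by role (y axis), with bars for the standard error of the fit over 3 libraries per group, filled points for an adjusted p under 0.05, hollow points for the others and dashed lines at 2-fold. PSMD11 at -2.04 and PSMG3 at 1.25 are the extremes among the proteasome parts, and 7 of the 8 assembly chaperones lie to the right of 0.

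The 15 subunits of the 20S core were mostly lower in shDCAF1, with 8 lower (53.3%, against 36.0% of all genes tested), 3 higher (20%, against 40.4%) and 4 not passing and a median log2 fold change of -0.43. With library size alone 6 were lower, 4 higher and 5 did not pass (median -0.22). The 7 alpha ring genes all passed, against 76.4% of all genes tested. They split by direction, 4 lower (57.1%, against 36.0%) and 3 higher (42.9%, against 40.4%). PSMA1 (chr11:14504874-14643635, hg38) had 3901, 4335 and 4393 normalized counts in shControl and 1949, 1902 and 1889 in shDCAF1. The groups were far apart beside their spread, and PSMA1 fell 2.20-fold, at a log2 fold change of -1.14 (SE 0.080, adjusted p = 9.57e-07) by edgeR's quasi-likelihood test with Benjamini-Hochberg adjustment. PSMA7 had 6551, 7168 and 7393 in shControl and 4085, 4089.8 and 4079.7 in shDCAF1, where its 3 values nearly coincided, and it fell by 0.78 on the log2 scale (SE 0.078). PSMA6 (-0.83, SE 0.095) and PSMA4 (-0.56, SE 0.12) fell as well.

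The other alpha ring genes rose. PSMA5 had 1583, 2089 and 2080.1 in shControl and 3032, 2787 and 2853 in shDCAF1, with no overlap, and rose 1.51-fold, at 0.59 (SE 0.11, adjusted p = 0.000919) by edgeR's quasi-likelihood test with Benjamini-Hochberg adjustment. PSMA2 had 2371, 2435 and 2582 and 3076, 3026 and 3083, a narrow spread within each group, and rose by 0.31 on the log2 scale (SE 0.074). PSMA3 stood at 0.28 (SE 0.11, adjusted p = 0.0433, edgeR's quasi-likelihood test with Benjamini-Hochberg adjustment), a call that was lost in 8 of the alternatives, with an adjusted p of 0.124 without library 1 of shControl and 0.111 without library 1 of shDCAF1. An antisense gene of PSMA3, PSMA3-AS1, had 240, 245 and 301 counts in shControl and 799, 615 and 864 in shDCAF1. A gene that overlaps PSMA2 on the same strand had 89, 167 and 179 counts and 403, 387 and 381. The sources used here do not say if strand was used in counting, and the part of such overlapping genes in the members' counts was not tested.

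In the beta rings, PSMB3 and PSMB1, both structural subunits without a cutting site, fell. PSMB3, whose promoter stretch is printed above, had 2712, 3233 and 3468 in shControl and 1589, 1646 and 1525 in shDCAF1, with all shDCAF1 values below all shControl values, and a log2 fold change of -0.98 (SE 0.10, adjusted p = 1.40e-05) by edgeR's quasi-likelihood test with Benjamini-Hochberg adjustment. PSMB1 had 2892, 3435 and 3329.6 and 1849, 1684 and 1793, again without overlap, and stood at -0.86 (SE 0.090). The structural subunits PSMB4 (-0.15, SE 0.10) and PSMB2 (-0.068, SE 0.15) did not pass. PSMB4 did without library 1 of shControl (-0.25, adjusted p = 0.012), with TMM factors (-0.25, adjusted p = 0.0424) and with DESeq2 (-0.27, adjusted p = 0.0238). The values of PSMB2 were spread widely in shControl, at 3729.9, 5107 and 5322.

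Of the subunits that cut proteins, 1 of 3 passed, against 76.4% of all genes tested. PSMB6, which carries the caspase-like site, had 1781, 2113 and 2247 in shControl and 1448, 1603 and 1516 in shDCAF1 and fell by 0.43 on the log2 scale (SE 0.10). PSMB7, with the trypsin-like site, did not pass by edgeR's quasi-likelihood test with Benjamini-Hochberg adjustment (-0.17, SE 0.074, adjusted p = 0.059) although its groups did not overlap. PSMB5, with the chymotrypsin-like site and the main target of proteasome inhibitor drugs, had 2199, 2947 and 2835 and 2959, 2833 and 2771, groups that overlapped (0.10, SE 0.11). The call of PSMB6 was lost with library size alone (-0.22, adjusted p = 0.0847). With that scaling PSMB5 passed as higher (0.31). PSMB7 passed with TMM factors (-0.27, adjusted p = 0.008) and with DESeq2 (-0.29, adjusted p = 0.000818). It also passed without library 1 of shControl (adjusted p = 0.043) and without library 1 of shDCAF1 (adjusted p = 0.015).

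PSMB10 is the trypsin-like subunit of the immunoproteasome, the form of the core that interferon induces. It had 746, 748 and 791 normalized counts in shControl and 382, 619 and 614 in shDCAF1. Library 1 of shDCAF1 was well below the other two, and the log2 fold change of -0.50 (SE 0.17, adjusted p = 0.0237) by edgeR's quasi-likelihood test with Benjamini-Hochberg adjustment became -0.31 without it. The call was lost with library size alone (-0.29, adjusted p = 0.146), without library 1 of shControl (adjusted p = 0.0551) and without library 3 of shControl (adjusted p = 0.0656). The other two immunoproteasome subunits, PSMB8 and PSMB9, which the name rule leaves out, had 1338, 1558 and 1522 and 1415, 1649 and 1615 (PSMB8, 0.083, SE 0.098) and 962, 1047 and 1071 and 155, 236 and 251 (PSMB9, -2.25, SE 0.17). PSMB9 thus fell 4.77-fold while PSMB8, its neighbour on chromosome 6, did not pass.

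SEM1, a lid subunit that the name rule does not catch, fell by over 2-fold and is given further below. The 18 subunits of the 19S particle among the members were divided into 4 higher (22.2%, against 40.4% of all genes tested), 6 lower (33.3%, against 36.0%) and 8 not passing. Their median log2 fold change was -0.011, which was -0.11 with TMM factors, -0.13 with DESeq2 and 0.20 with library size alone. Of the 6 ATPases of the base, PSMC4 (0.52, SE 0.12) and PSMC3 (0.31, SE 0.079) rose and PSMC1 (-0.46, SE 0.11) fell. PSMC4 had 1272, 1609 and 1755 in shControl and 2134, 2240.3 and 2261 in shDCAF1, and PSMC1 had 3362, 3843 and 3813 and 3051, 2436 and 2513, so members of 1 ring moved in opposite directions without overlap between groups. PSMC2, PSMC5 and PSMC6 did not pass, at 0.01, 0.14 and -0.11 (SE 0.10, 0.086 and 0.088). The call of PSMC1 was lost with library size alone (-0.25, adjusted p = 0.0603). With that scaling PSMC5 passed as higher (0.35). PSMC6 passed without library 1 of shDCAF1 (-0.18, adjusted p = 0.046), with TMM factors (-0.21, adjusted p = 0.048) and with DESeq2 (-0.24, adjusted p = 0.0274).

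Among the other proteins of the base, PSMD2, a large scaffold that also binds shuttle factors, had 11899, 11903 and 11662 in shControl and 6167, 6172 and 5936 in shDCAF1. The 2 groups were tight and stood 1.94-fold apart, at -0.96 (SE 0.072, adjusted p = 1.53e-06) by edgeR's quasi-likelihood test with Benjamini-Hochberg adjustment. ADRM1, a ubiquitin receptor and the anchor of the deubiquitinase UCHL5, had 4168, 4661 and 4419.9 and 2089, 2481 and 2474 and fell by 0.91 on the log2 scale (SE 0.094). ADRM1 overlaps LAMA5 on the opposite strand, whose counts went from 39480, 40128 and 42640 to 8206, 11437 and 14541, and the part of LAMA5 reads in the value was not tested. The scaffold PSMD1 (0.039, SE 0.12) and the ubiquitin receptor PSMD4 (-0.033, SE 0.096) did not pass.

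The lid held the member that differed most among the proteasome parts. PSMD11 (chr17:32444379-32483319, hg38), a lid scaffold with 14 exons in its main GENCODE 44 transcript, had 7850.4, 9654 and 9679.8 normalized counts in shControl and 2409, 2078 and 2139 in shDCAF1. Every shControl value was far above every shDCAF1 value. PSMD11 fell 4.10-fold, at -2.04 (SE 0.11, adjusted p = 1.51e-07) by edgeR's quasi-likelihood test with Benjamini-Hochberg adjustment, and passed over 2-fold under every alternative run, as did PSMG3 and PSMC3IP. PSMD13 (-0.96, SE 0.086) and PSMD3 (-0.90, SE 0.088) also fell, PSMD3 (promoter stretch above) from 4831, 5678 and 5670.4 to 2929.7, 2806 and 2959.

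Other lid subunits rose or did not pass. PSMD8 had 2203, 2834 and 2852 in shControl and 3536, 3676 and 3676 in shDCAF1, and PSMD7 had 1995, 2211 and 2354 and 3066, 2848 and 2964. Both rose without overlap, by 0.46 and 0.44 on the log2 scale (SE 0.11 and 0.086). PSMD14, the metalloprotease that clips ubiquitin from the substrate, did not pass at 0.074 (SE 0.11), and neither did PSMD6 (0.17, SE 0.12) or PSMD12 (-0.25, SE 0.12). PSMD12 passed without library 1 of shControl or library 1 of shDCAF1 (both -0.35, adjusted p = 0.017). It also passed with TMM factors (-0.34, adjusted p = 0.0227) and with DESeq2 (-0.37, adjusted p = 0.00877). PSMD6 (0.39) and PSMD14 (0.29) passed as higher with library size alone.

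Of the alternative caps, PSME1 fell and its partner PSME2 did not pass, although the 2 proteins form 1 ring. PSME1 had 3751, 4051 and 4166 in shControl and 2375, 2709 and 2942 in shDCAF1, without overlap (-0.58, SE 0.096), and PSME2 had 2310.02, 2307 and 2346 and 2293, 2229 and 2388, which overlapped (-0.011, SE 0.073). Their genes lie 4.395 kb apart on chromosome 14. With library size alone PSME2 turned to 0.20 and passed (adjusted p = 0.03). With that scaling 3 of the 5 genes for caps and inhibitor were higher and 2 lower, so PSME3 passed too. PSME4, the cap linked to histone turnover, rose by 0.39 (SE 0.093), PSME3, the nuclear cap, did not pass at 0.063 (SE 0.094), and the inhibitor PSMF1 fell from 4075, 4171 and 4175 to 2443, 2545 and 2499.8 (-0.73, SE 0.071).

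The 8 dedicated assembly chaperones, which help to build the particle and leave it, mostly ran the other way from the core. Of these, 6 were higher in shDCAF1 (75%, against 40.4% of all genes tested), 1 lower and 1 did not pass. Their median log2 fold change was 0.64, and for all 8 the groups did not overlap, as for 79.5% of all genes tested. PSMG3 (chr7:1567332-1571005, hg38) had 483, 482 and 563 normalized counts in shControl and 1152, 1232 and 1246 in shDCAF1 and rose 2.37-fold, at 1.25 (SE 0.10, adjusted p = 2.85e-06) by edgeR's quasi-likelihood test with Benjamini-Hochberg adjustment. An antisense gene that overlaps PSMG3, PSMG3-AS1, had 26, 21 and 32 counts in shControl and 84, 132 and 175 in shDCAF1. The partner of PSMG3 in alpha ring assembly, PSMG4, had 330.3, 307 and 397 and 469, 459 and 452 and rose by 0.41 (SE 0.12), a call lost with DESeq2 (adjusted p = 0.0602) and without library 2 of shControl (adjusted p = 0.0609). The other pair, PSMG1 and PSMG2, rose together. PSMG1, whose promoter stretch is printed above, had 555, 623 and 637 and 1172, 1085 and 1024 (0.85, SE 0.10), and PSMG2 had 1287, 1657 and 1543 and 2492, 2267 and 2301 (0.65, SE 0.10). In both genes every shDCAF1 value was above every shControl value. PSMG4 overlaps SLC22A23, which had 1419, 1348 and 1556 counts in shControl and 2558, 3439 and 4598 in shDCAF1. It also overlaps TUBB2B, which went the other way, from 88, 93 and 83 counts to 14, 23 and 29. PSMG2 overlaps SPIRE1 on the opposite strand, with 1420, 1243 and 1422 counts and 2433, 2348 and 3071. It also overlaps CEP76, with 421, 551 and 564 counts and 495, 450 and 567. The part of these genes in the chaperones' values was not tested.

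POMP, the chaperone on which the beta ring is built, was the exception. It had 2239, 2558 and 2843 in shControl and 1368, 1135 and 1039 in shDCAF1, a 2.16-fold fall without overlap, at -1.11 (SE 0.13, adjusted p = 2.65e-05) by edgeR's quasi-likelihood test with Benjamini-Hochberg adjustment. Of the chaperones of the 19S base, PSMD10 had 1164, 1464 and 1385 and 2471, 2416 and 2364 and rose by 0.85 (SE 0.098), and PSMD5 had 1086, 1103 and 1211 and 1936, 1607 and 1678 and rose by 0.62 (SE 0.098). CUTALP overlaps PSMD5 on the opposite strand, with 126, 148 and 215 counts in shControl and 605, 541 and 760 in shDCAF1. The part of CUTALP reads in the PSMD5 value was not tested. PSMD9 stood at 0.19 (SE 0.093) and did not pass, but it passed as higher with library size alone (0.40). Summed over the 8 chaperones, normalized counts were 7849, 8877 and 9301 in shControl and 11902, 11006 and 10865 in shDCAF1. The 15 core subunits summed to 44479, 52195 and 53654 and to 41136, 38430 and 38349, so that the chaperone sum was higher and the core sum lower in every shDCAF1 library than in every shControl library. As a share of all counts the chaperones were still apart, at 0.0327%, 0.0376% and 0.0395% against 0.0586%, 0.0537% and 0.0527%, but the core overlapped, at 0.185%, 0.221% and 0.228% against 0.202%, 0.188% and 0.186%.

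The names that are no proteasome parts both rose. PSMC3IP had 83.5, 119.6 and 109 in shControl and 333, 315 and 285 in shDCAF1 and rose 2.98-fold, at 1.57 (SE 0.17, adjusted p = 1.58e-05) by edgeR's quasi-likelihood test with Benjamini-Hochberg adjustment, and PSME3IP1 had 1093, 1067 and 1108 and 2259.8, 1980.5 and 2074 (0.95, SE 0.084). Without them, 14 of the 46 proteasome parts were higher (30.4%, against 40.4% of all genes tested), 17 lower (37.0%, against 36.0%) and 15 did not pass. By over 2-fold, 1 was higher (2.17%, against 24.5%) and 3 were lower (6.52%, against 22.0%).

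**Figure D2:**
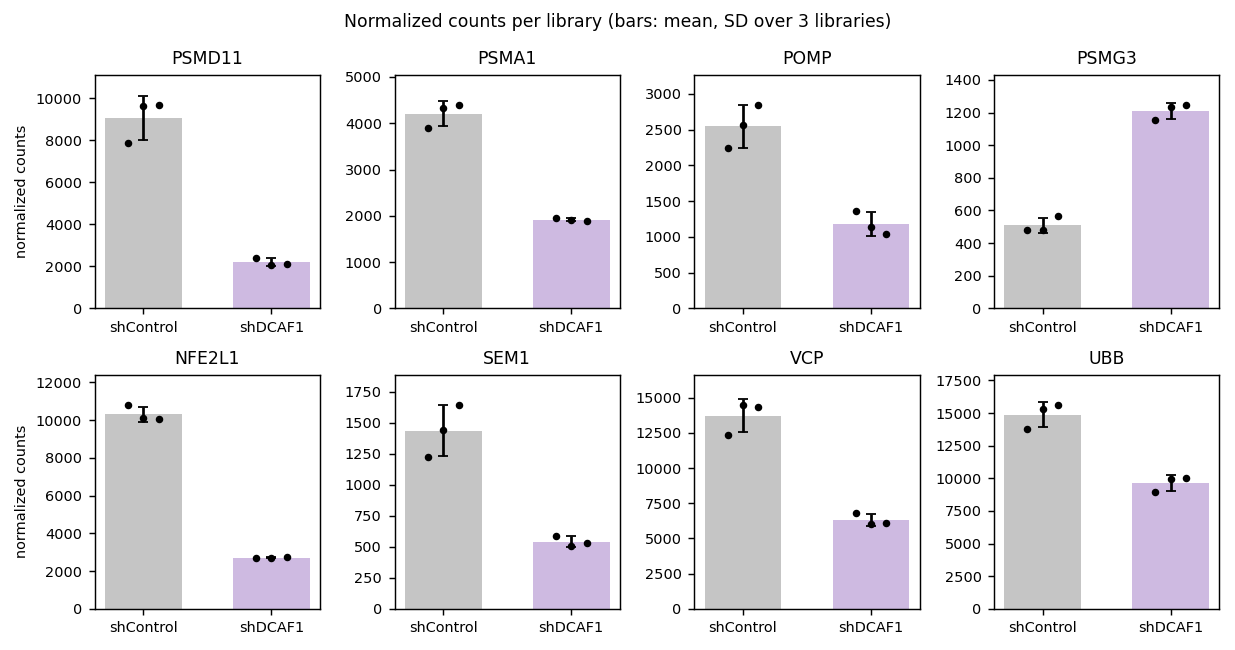
Normalized counts (y axis) in each of the 3 shControl and 3 shDCAF1 libraries for selected genes, with 1 panel per gene, 1 point per library, a bar for the group mean and a whisker for the SD. PSMD11 lies at 2078 to 2409 in shDCAF1 against at least 7850.4 in shControl, and PSMG3 lies higher in all 3 shDCAF1 libraries.

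Within shControl, library 1 stood below the other two for the proteasome. It held the lowest shControl value for 41 of the 46 proteasome parts (89.1%, against 44.6% of all genes tested), including 15 of 15 core subunits and 17 of 18 subunits of the 19S particle. Its median log2 difference from the mean of the other two was -0.23 over the 46 parts and -0.015 over all genes. Summed over all 48 members, the members took 0.527%, 0.614% and 0.623% of the counts of the shControl libraries and 0.582%, 0.540% and 0.542% in shDCAF1, so that library 1 of shControl had the lowest share of the 6. Without it, the core had 9 lower, 2 higher and 4 not passing, the 19S particle 7 lower, 4 higher and 7 not passing, and the chaperones 6 higher, 1 lower and 1 not passing. In shDCAF1, library 1 was the highest for 29 of the 46 parts (63.0%, against 45.4% of all genes tested).

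**Figure D3:**
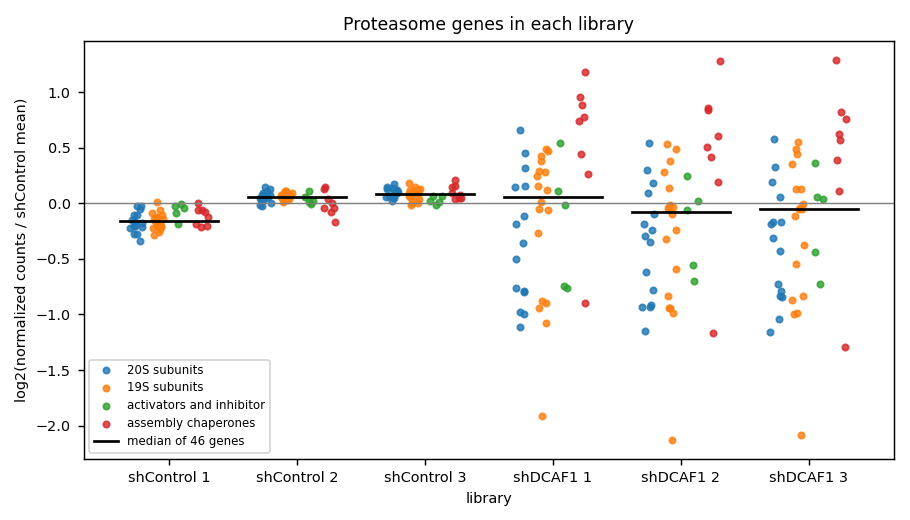
Log2 of the normalized count over the gene's shControl mean (y axis) for each of the 46 proteasome parts in each library (x axis), coloured by role, with a line at the median of the 46. Points of shControl 1 sit below those of shControl 2 and 3, where 41 of 46 parts have their lowest shControl value, and 7 of the 8 assembly chaperones sit above 0 in all 3 shDCAF1 libraries while POMP sits near -1.

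The 20S core holds its subunits in equal number, but their counts per kilobase of annotated exons were far from equal. Per kilobase of merged exons, PSMA7 had the highest level in both groups, 4017 normalized counts in shControl and 2332 in shDCAF1. Among the 14 constitutive core subunits the highest level was 13.7 times the lowest in shControl (PSMA7 over PSMA2) and 6.67 times in shDCAF1 (PSMA7 over PSMA4). Among the 18 members of the 19S particle the ratio was 18.2 in shControl (PSMD2 over PSMD6) and 10.7 in shDCAF1 (PSMC3 over PSMD6). With the length of the longest transcript in place of merged exons these ratios were 15, 7.15, 15.7 and 7.77. The narrower range in shDCAF1 held with both lengths and was not tested. Neither length need be that of the transcript expressed. PSMA2 has 8378 merged exon bases and a longest transcript of 5365, against 1752 and 1023 for PSMA7. Their mean normalized counts in shControl were 2463 and 7037, so annotated length enters the ratios, and its part was not tested.

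The members lie on many chromosomes, and the direction of a member was set beside that of the genes around it. For 45 proteasome parts with at least 5 tested genes within 1 Mb, other members left out, the log2 fold change of the part and the median of its neighbours had a Pearson's r of 0.78 and a Spearman's rho of 0.78, and the signs were the same for 30 of the 45. Over 15948 genes of all kinds the values were 0.30 and 0.38, with the same sign for 65.4%. For those genes only the gene itself was left out of its neighbours. They include noncoding genes and genes at low counts, so the 2 sets are not alike and were not matched for abundance. The correlations are descriptions across genes, which share libraries and in part share neighbours, and carry no test. PSMD11 had 16 such neighbours, whose median was -1.74 and of which 13 were lower and 1 higher by over 2-fold. The median around PSMA1 was -2.56, from 5 neighbours. At PSMG3 the 27 neighbours had a median of 0.85, and at PSMA5 the 37 neighbours had 1.16. PSMA6, which fell, had 18 neighbours with a median of 0.19, and PSME1, which fell, had 55 with 0.48. PSMB3 and PSMD3, which lie on chromosome 17 with PSMD11 and also fell, had mixed neighbours, 7 higher and 7 lower by over 2-fold around PSMB3 (median -0.37) and 8 higher and 11 lower around PSMD3 (median -0.21).

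**Figure D4:**
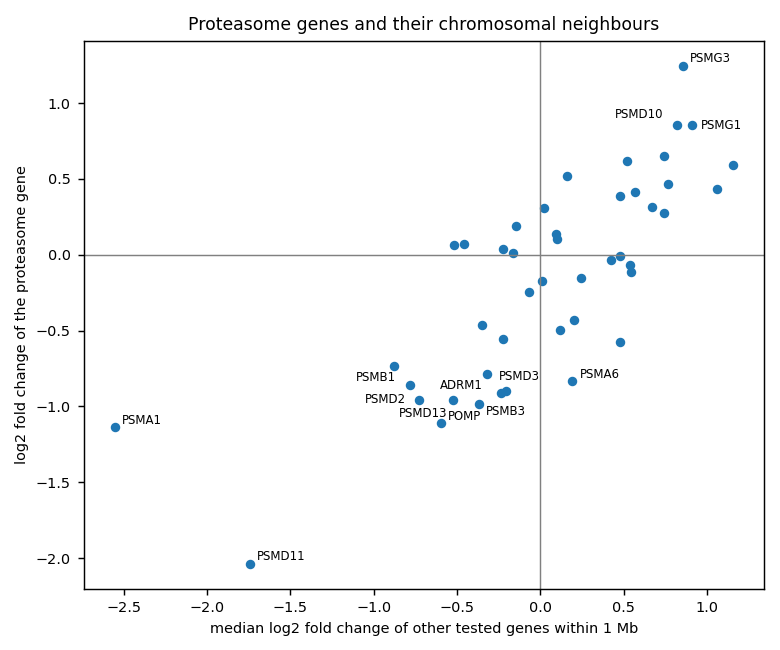
Log2 fold change of each proteasome part (y axis) against the median log2 fold change of the other tested genes within 1 Mb (x axis), for 45 parts, 1 point per gene. PSMA1 and PSMD11 lie at the lower left, with neighbours at -2.56 and -1.74, and PSMG3 lies at the top right with neighbours at 0.85.

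Genes that work with the proteasome were read from 4 lists chosen by function. Of 36 genes tested, 1 was higher and 8 were lower by over 2-fold (the background being 24.5% higher and 22.0% lower), and at any fold 11 were higher and 17 lower (40.4% and 36.0%). NFE2L1, the NRF1 factor itself, had 10785, 10105 and 10043 normalized counts in shControl and 2691, 2683 and 2749 in shDCAF1, tight groups far apart, at -1.93 (SE 0.076, adjusted p = 2.14e-08) by edgeR's quasi-likelihood test with Benjamini-Hochberg adjustment. Its dimer partners MAFF (-1.80, SE 0.12) and MAFG (-0.84, SE 0.082) fell and MAFK (0.75, SE 0.14) rose. Of the enzymes that activate NRF1, NGLY1 rose by 0.39 (SE 0.13), a call lost with TMM factors (adjusted p = 0.0641), with DESeq2 (0.109) and without library 1 or library 2 of shControl (0.0505 and 0.0511). DDI2 did not pass at 0.15 (SE 0.085) but did without library 1 of shControl (0.21, adjusted p = 0.0327) and with library size alone (0.36, adjusted p = 0.00304). In this list of 7, 2 were higher and 4 lower at any fold, NFE2L2 being the other that fell (-0.35, SE 0.071, not passing with library size alone).

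Of 16 proteasome-associated factors, 5 were higher and 6 lower at any fold, where 40.4% of all genes tested were higher and 36.0% lower. SEM1, a small lid subunit whose symbol the name rule does not catch, had 1227, 1446 and 1642 in shControl and 588, 505 and 529.7 in shDCAF1 and fell without overlap (-1.41, SE 0.12). AKIRIN2, which brings proteasomes into the nucleus, fell by 1.03 (SE 0.085), the ligase UBE3C fell by 1.04 (SE 0.074), and PITHD1 rose by 1.45 (SE 0.15). Of the deubiquitinases that dock on the 19S particle, UCHL5 fell by 0.79 (SE 0.16) and USP14 did not pass at 0.27 (SE 0.11). USP14 did pass without library 2 or library 3 of shDCAF1 (adjusted p = 0.0459 and 0.0438) and with library size alone (0.49, adjusted p = 0.00399). It also passed with at least 10 counts asked of every sample (adjusted p = 0.0499).

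The p97 unfoldase VCP, which pulls ubiquitinated proteins out of complexes before the proteasome takes them, had 12352, 14457 and 14310.2 in shControl and 6801, 6055 and 6092 in shDCAF1 (-1.12, SE 0.093). It and its cofactor NSFL1C (-1.19, SE 0.084) fell by over 2-fold, while FAF1 (0.93, SE 0.11), UFD1 (0.59, SE 0.11), FAF2 (0.36, SE 0.093) and UBXN1 (0.28, SE 0.081) rose, the last losing its call with TMM factors (adjusted p = 0.0639), DESeq2 (0.133) and without library 2 of shControl or library 2 or 3 of shDCAF1 (0.0534 to 0.0588). Of the genes for ubiquitin and its activation, UBB (-0.63, SE 0.087) and RPS27A (-0.45, SE 0.085), which encode ubiquitin, fell, as did the ubiquitin-activating enzymes UBA1 (-0.23, SE 0.076) and UBA6 (-0.75, SE 0.098). UBB had 13771, 15285 and 15594 in shControl and 8929.9, 9972 and 10033 in shDCAF1, without overlap. The call of UBA1 was lost with library size alone (-0.016), without library 3 of shControl (adjusted p = 0.0513) and without library 2 of shDCAF1 (adjusted p = 0.0604). The number of genes lower by over 2-fold in the 4 lists was 3 with library size alone.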

How the data were processed

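RNA-seq had been made from 3 shControl and 3 shDCAF1 samples, and groups and replicate numbers were read from the sample titles. By the study's methods and the labels, the authors used STAR to align single-end reads to hg38 and Partek Flow to quantify genes, and the deposited table holds estimated counts per sample, neither normalized nor pooled. Of the values, 59.4% were whole numbers, and every gene had a sum of at least 10. Of the gene identifiers, 88.2% had the version of GENCODE 44, which was used here for exon lengths and overlapping genes. Any effect of counting without strand, or of reads shared with pseudogenes, stays in the values.

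The estimated counts were rounded and fitted in edgeR 4.0.16 (R 4.3.3) with the quasi-likelihood test. Scaling was by upper quartile (0.75) factors and low genes were removed by filterByExpr (minimum 10 counts). The test stands in for the study's Gene Specific Algorithm. The filter left 16756 genes, over which p-values were adjusted by Benjamini-Hochberg. The design had been written for counts. A standard error is the fitted log2 difference over the root of its F statistic. The script was tested on simulated counts. Depth was 18195949 to 26883948 counts, and precision was limited mainly by 3 libraries per group.

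Alternatives were TMM factors, library size alone, DESeq2 1.42.0, limma 3.58.1 (voom), other filters, a replicate block, a test against 2-fold and leaving out each library. The members and the gene lists were chosen with earlier results of these data known. All members, DCAF1, genes of the lists, markers and genes overlapping a member could be named, and a few genes of the lists are not reported here. Set tests were not run, and promoters were read from RefSeq windows (GRCh38.p14) and searched in Python 3.11.15.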

Additional observations from a re-analysis of the deposited data

How the results depend on the processing

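Over all genes tested the median difference on the log2 scale was 0.083 with upper quartile factors, -0.014 with TMM factors, 0.29 with library size alone and -0.038 with DESeq2, and the median of the 48 members stayed 0.083 to 0.084 below it under these 4. The members' own median was -0.00046, 0.21 with library size alone and -0.12 with DESeq2. Members higher by over 2-fold numbered 2, or 5 with library size alone. Those lower by over 2-fold numbered 3, or 7 with TMM factors, 1 with library size alone, 8 with DESeq2 and 2 with a test against 2-fold. In the 4 linked lists 1 gene was higher and 8 lower, or 2 and 3 with library size alone and 1 and 4 with a test against 2-fold. With library size alone DCAF1 was at -0.37 and did not pass, and PSME2 turned to 0.20. The cause of these changes was not tested beyond the scaling itself.

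Leaving out each library gave 2 members higher each time and 3 to 5 lower by over 2-fold, the 5 without library 1 of shControl. At any fold it gave 14 to 16 higher and 16 to 20 lower, with a median of -0.077 to 0.041. In the linked lists it gave 1 to 2 higher, the 2 without library 2 of shControl, and 8 lower, and for DCAF1 -0.82 to -0.46. Where a group kept 2 libraries its spread was pooled with the other group.

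Samples with the same replicate number did not deviate together (correlations of -0.14, -0.028 and -0.11 over 13320 genes). With 3 libraries per group these correlations cannot show if such samples shared a culture or a batch. With the replicate block 15 members were higher and 17 lower at any fold, and 2 and 3 over 2-fold, and of the members PSMA3 alone lost its call (0.28, adjusted p = 0.106). Of the linked genes NGLY1 (adjusted p = 0.0592), UBA1 (0.0507) and RAD23B (0.0517) lost theirs. With limma-voom no member changed its call.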
